A study of Gallus gallus with 18 samples.

Results

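The liver transcriptome described here is that of broiler chickens on a control diet: the 6 arrays labelled HI0, of 18 arrays in the series, taken by that label alone. The trial used male Cobb 500 broilers, a fast-growing meat strain, housed 4 to a cage with feed and water always at hand. The HI0 diet relied on soybean meal and contained 0 g per kg of the larvae meal of Hermetia illucens (HI, the black soldier fly) that the other diets held, and it was given in 3 phases over 35 d from the first day of life. The labels name no gene alteration or drug. The labels do not tie an array to a bird or a cage, so the 6 arrays are called samples, with replicate numbers that only name them, and the spread between them may be partly technical. Levels and spread in this group are described, no diet's levels are compared with another's, and the other diets enter only through the spread between their own samples. Of 18226 probe sets, 12300 had 1 gene symbol, and these gave 11528 genes, each read by its brightest probe set.

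The liver makes most proteins of the blood plasma, stores and releases glucose, takes up and detoxifies compounds arriving from the gut, and forms bile. In birds it is also the main site where fatty acids are made from carbohydrate, ahead of adipose tissue, and it packs fat into very-low-density lipoprotein for export. Birds excrete surplus nitrogen as uric acid, built through the purine pathway, rather than as urea. Hepatocytes fill most of the organ, with sinusoidal endothelium, stellate cells, macrophages called Kupffer cells, bile duct cells and blood cells between them.

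Signals are RMA log2 values, in which a step of 1 is a doubling of fluorescence. Array medians lay between 7.24 and 7.31, and the correlation between arrays over genes ran from 0.971 to 0.987. The SD of signal over probe sets, a measure of how stretched an array's scale is, was 1.80, 1.86, 1.81, 1.89, 1.77 and 1.92 in replicates 1 to 6. The first principal component held 40.1% of the variance and put replicates 1, 3 and 5, the narrower arrays, on 1 side and replicates 2, 4 and 6 on the other. Its part in the results below was not tested, but values after quantile normalization, which gives every array the same scale, are given where they bear on a result.

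The label of liver was matched by the defining markers. Of 18 hepatocyte markers measured, 17 lay above the median of all genes, which was 7.56. CPS1, the mitochondrial carbamoyl phosphate synthetase of the urea cycle, was the exception at 6.13. All 6 endothelial markers lay above the median, as did all 3 macrophage markers and 6 of 7 stellate cell markers. None of the 6 T and NK cell markers did, and none of the 2 markers each of muscle, of pancreas and gut, of kidney and of thrombocytes, nor the 1 heterophil marker. Some markers of other cells did: 2 of 5 of bile duct cells, 2 of 3 of red cells, 1 of 3 of B cells (JCHAIN, 9.04) and 1 of 2 of adipocytes (PLIN1, 8.70). In whole tissue, fewer cells of a type and less RNA per cell cannot be told apart.

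Among genes with a single symbol, many of the brightest were those of the hepatocyte's secreted proteins. Of the 100 brightest probe sets, 53 had no single gene name and are not in this ranking. ALB, serum albumin, led with 14.53, 14.47, 14.52, 14.46, 14.54 and 14.52 in replicates 1 to 6, close to the highest signal of any probe set on these arrays, 15.07. FGA, the alpha chain of fibrinogen, followed at a mean of 14.35, and AHSG, the fetuin of plasma, stood at 14.18. Probe sets differ in how strongly they bind and glow, so the order is one of signal and not of RNA amount, and neighbours in it such as AHSG and APOA1 (14.17) did not differ beyond their spread. Of the 30 brightest genes, 16 were in the lists of plasma carriers, clotting, complement, serpins or apolipoproteins, and 28 were in some function list. The lists taken by exact symbol, function and cell type together, held 858 of the 11528 genes. The 3 function lists taken by symbol pattern, not in that number, held 52, 53 and 29. The lists behind the 16 held 25, 22, 19, 14 and 20 measured genes, some of them shared. Lists and members were chosen with earlier results of these data known, so these counts are only a description. The gene ranked 30 had a mean of 13.18 and the next 13.14, so the border has no gap.

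**Figure D1:**
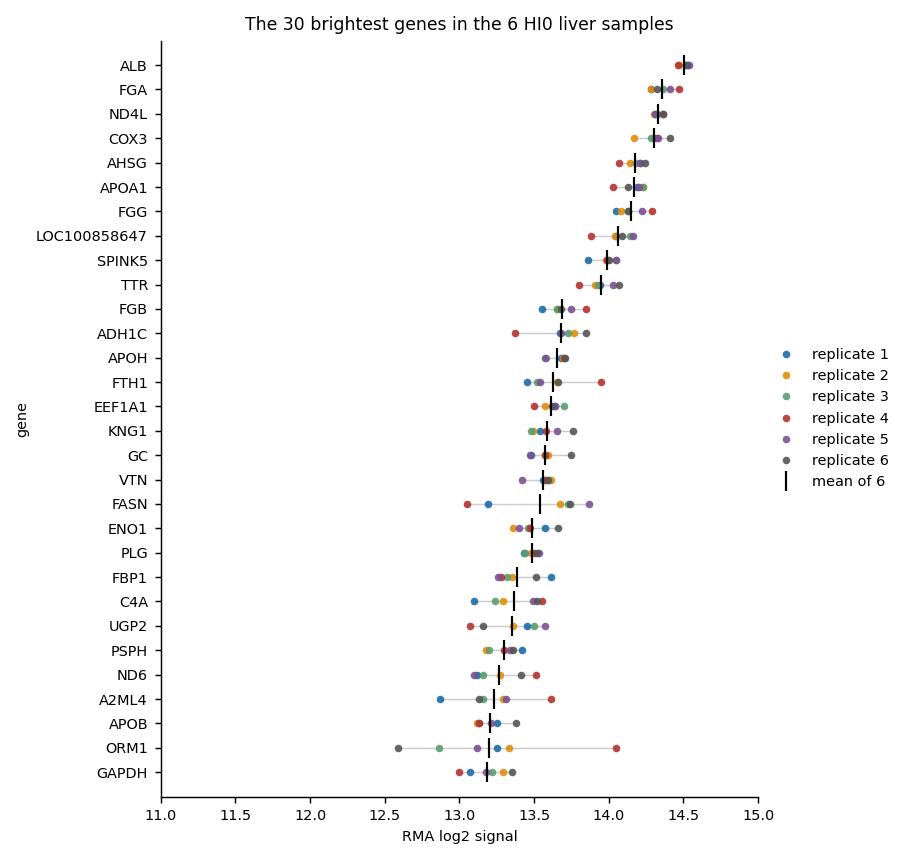
RMA log2 signal (horizontal axis) of the 30 brightest genes, from ALB at the top to GAPDH, in each of the 6 HI0 samples (coloured points) with the mean (black tick). The points of most genes nearly coincide, while ORM1 spans 12.59 to 14.05.

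Plasma carrier and binding proteins were the brightest large group, with 14 of 25 measured genes in the brightest 1% of all genes and a list median of 12.77. TTR, the carrier of thyroid hormone and of the retinol-binding protein, averaged 13.95 ± 0.095 (SD, n = 6). GC, which carries vitamin D, averaged 13.57 ± 0.10 (SD, n = 6). Some members of the list also had very small spreads between samples, and the SD of ALB was 0.033. Others did not: 10 of the 25 had an SD above the median of all genes, and 3 were in the top 5% by SD. FGL2, a fibrinogen-like protein also made by immune cells, was the most variable of the list, with 9.43 in replicate 4 and 7.71 to 8.55 in the others. A2ML4, an alpha-2-macroglobulin-like protein, was the only member of the 30 brightest genes besides ORM1 and FASN with an SD above 0.2, at 0.24.

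Clotting factors came next, with 10 of 22 genes in the brightest 1% and a list median of 11.61. The 3 chains of fibrinogen shared a pattern over the samples. FGA was 14.28, 14.28, 14.36, 14.47, 14.41 and 14.32 in replicates 1 to 6. FGG was 14.05, 14.08, 14.13, 14.29, 14.22 and 14.13, and FGB was 13.55, 13.65, 13.65, 13.85, 13.75 and 13.68. All 3 were highest in replicate 4, second in replicate 5 and lowest in replicate 1, where FGA tied with replicate 2. PLG, the precursor of plasmin, was steady at 13.48 ± 0.041 (SD, n = 6), and KNG1, kininogen, averaged 13.58. VWF, made by endothelium rather than hepatocytes, varied most, from 9.18 in replicate 1 to 10.43 in replicate 6.

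Complement genes had a median of 11.34, with 4 of 19 in the brightest 1% and 12 in the brightest 5%. C4A, a component of the classical and lectin pathways, averaged 13.37 ± 0.18 (SD, n = 6). C1R, the protease that starts the classical pathway, was 12.70 in replicate 4 and 11.93 to 12.34 in the others. Spread was wider here than among the carriers: the median SD was 0.30 for complement against 0.15 for the carriers and 0.197 for all genes. Serpins, the protease inhibitors of plasma, had a median of 11.29. SERPINC1, antithrombin, averaged 12.99 and SPIA1, a clade A serpin, 12.66. SPIA3 of the same clade was the most variable, at 10.89, 10.32, 11.46, 13 and 11.94 in replicates 1 to 5 and 10.29 in replicate 6, which put it among the 30 genes with the largest spread.

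Apolipoproteins were split between bright and dim genes. APOA1, the main protein of high-density lipoprotein, averaged 14.17 ± 0.077 (SD, n = 6), APOH 13.66 and APOB, the scaffold of very-low-density lipoprotein, 13.20. In all, 5 of 20 genes were in the brightest 1%, and 15 were above the median of all genes, with a list median of 9.05. These 3 varied little between samples. ANGPTL4, an inhibitor of lipoprotein lipase, differed from them with 11.00, 11.03, 11.08, 8.70, 10.97 and 10.63, so that 5 samples lay together and replicate 4 lay far below.

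Fatty acid synthesis was bright. FASN, fatty acid synthase, was 13.19, 13.67, 13.73, 13.05, 13.87 and 13.74, with the lower values in replicates 1 and 4. FADS2, the delta-6 desaturase, averaged 13.08 and was also lowest in replicates 4 and 1. LBFABP, the liver basic fatty acid-binding protein of birds, averaged 13.02. Of 27 genes in the list, 7 were in the brightest 1% and 14 in the brightest 5%, with a median of 10.60. ACSS2, which makes acetyl-CoA from acetate, ran the other way from FASN in replicate 4: it was 10.98 there and 9.02 to 10.07 in the others. THRSP, a thyroid-responsive protein of lipogenic tissue, averaged 12.67 and had its lowest values in replicates 4 (12.17) and 1 (12.52).

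Fatty acid oxidation was nearly as bright by its median, 10.36, but only 2 of 32 genes reached the brightest 1%, while 25 reached the brightest 10%. SCP2, a lipid transfer protein and thiolase of peroxisomes, averaged 12.25, and ACADL, a long-chain acyl-CoA dehydrogenase, 12.22. HADHB, the thiolase subunit of the mitochondrial trifunctional protein, varied most, at 11.85, 11.04, 10.93, 12.04, 10.26 and 11.21. CPT1A, which admits fatty acids to mitochondria, was 11.94, 10.91, 10.90, 11.42, 10.17 and 11.25. Both genes were highest in replicates 1 and 4 and lowest in replicate 5. The spread of HADHB was 3.43-fold from lowest to highest and that of CPT1A 3.41-fold.

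Cholesterol synthesis had all 17 measured genes above the median of all genes and 10 in the brightest 5%. INSIG1, which holds back the sterol sensor, averaged 12.49, and HMGCS1, which makes HMG-CoA, averaged 12.38 with its highest value, 12.96, in replicate 4. FDFT1, squalene synthase, ranged from 10.44 in replicate 5 to 11.63 in replicate 4, and its second probe set had its lowest and highest values, 6.17 and 7.93, in the same 2 samples. CYP7A1, the rate-limiting enzyme of bile acid synthesis, was 11.58, 11.71, 11.14, 10.89, 10.02 and 11.40. NR1H4, the bile acid receptor, averaged 10.62 ± 0.17 (SD, n = 6). CYP8B1, the 12-alpha-hydroxylase that sets which bile acid is formed, was dimmer and more variable, at 7.87, 7.35, 7.28, 9.32, 7.00 and 8.81. None of the 19 bile acid genes was in the brightest 1%.

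Among genes of glucose handling, 6 of 33 were in the brightest 1% and the median was 10.03. ENO1, an enolase of glycolysis, averaged 13.49, FBP1, a gluconeogenic phosphatase, 13.39, and UGP2, which makes UDP-glucose for glycogen, 13.35. Their SDs were 0.11, 0.14 and 0.20, against 0.197 for the median of all genes. PCK1, the cytosolic form of phosphoenolpyruvate carboxykinase that commits carbon to glucose output, varied far more: it was 10.58, 8.88, 9.87, 7.14, 9.49 and 7.98. No 2 samples were alike, and the highest was 10.9-fold above the lowest. LDHB, a lactate dehydrogenase subunit, was high in replicates 4 (12.46) and 1 (11.74) and between 9.87 and 10.47 in the other samples.

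Mitochondrial genes were bright in different degrees. The names ND4L, COX3 and ND6, genes of mitochondrial DNA, stood at 14.33, 14.30 and 13.26. The name ND4L is attached to 11 probe sets whose means ran from 6.52 to 14.33, so the value of 1 of them says little about that gene alone. Citrate cycle genes had a median of 10.30, with IDH1, a cytosolic isocitrate dehydrogenase, at 12.10, and 17 of 18 above the median of all genes. The nuclear genes of oxidative phosphorylation had a median of 9.73, with 46 of 48 above the median of all genes and 26 in the brightest 10%. ATP5B, the catalytic subunit of ATP synthase, averaged 12.56, NDUFA4 12.08 and COX7B 12.05. Their median SD of 0.16 was below that of all genes.

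The brightest gene of purine synthesis and uric acid formation was ATIC, which completes the purine ring, with a mean of 12.84 ± 0.16 (SD, n = 6). PRPS2, which makes the ribose donor of purine synthesis, averaged 12.76, and MTHFD1, which supplies folate-bound carbon, 11.5. Of 21 genes, 7 were in the brightest 5%, 16 were above the median of all genes, and the list median was 10.03. XDH, xanthine dehydrogenase, which forms uric acid, was 9.67, 10.68, 9.62, 10.83, 9.46 and 9.91, high in replicates 2 and 4. Genes of amino acid breakdown had a lower median, 9.03, with 48 of 52 above the median of all genes. HPD and TAT of tyrosine breakdown averaged 12.81 and 12.41, and CDO1, which oxidizes cysteine, 12.79. ASS1, argininosuccinate synthetase, was the most variable, from 8.05 in replicate 5 to 9.60 in replicate 4. PSPH, the last step of serine synthesis, was among the 30 brightest genes at 13.30 ± 0.094 (SD, n = 6).

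Detoxification was led by ADH1C, an alcohol dehydrogenase, at 13.68, CYB5A, the cytochrome b5 that passes electrons to P450 enzymes, at 12.92, and ALDH2, mitochondrial aldehyde dehydrogenase, at 12.62. Of 42 cytochrome P450 and phase II genes, 4 were in the brightest 1% and 14 in the brightest 5%. ALDH2 and ADH1C were both lowest in replicate 4, at 12.18 and 13.37. Of 25 antioxidant genes, 19 lay above the median of all genes, led by GPX3, a secreted glutathione peroxidase, at 12.22, CAT, catalase, at 12.07 and SOD1, cytosolic superoxide dismutase, at 12.04. The list's median SD, 0.229, was above the 0.197 of all genes, and GLRX, glutaredoxin, varied most, with 8.51 in replicate 4 and 6.37 to 7.14 in the others. FTH1, the ferritin heavy chain that stores iron, averaged 13.63 and was highest in replicate 4 at 13.95.

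The machinery that makes and folds secreted protein was bright as a whole. Of 52 ribosomal protein genes, 33 were in the brightest 5%, and of 41 endoplasmic reticulum genes 25 were, with medians of 10.73 and 10.57. HSP90B1 and HSPA5, the main chaperones of that compartment, averaged 13.14 and 12.98, and P4HB, protein disulfide isomerase, 12.25. Ribosomal genes had a median SD of 0.123 and translation factors and tRNA synthetases 0.125, the lowest of the function lists with more than 3 genes, together with the proteasome at 0.127. EEF1A1, the elongation factor that delivers tRNA, averaged 13.61 ± 0.069 (SD, n = 6). PABPC1, the poly(A)-binding protein, was the steadiest gene of the brightest 25% at 12.94, 12.95, 12.94, 12.95, 12.99 and 12.99. Its 2 other probe sets had SDs of 0.20 and 0.27. The others of the 6 steadiest were ND4L, PAFAH1B1, CHD9, ALB and NFAT5, with SDs of at most 0.036. These 6 were chosen for low SDs in HI0. Their SDs within HI7.5 and HI15, diets with larvae meal, were low again for ND4L (0.029 and 0.046) and ALB (0.0496 and 0.0228). They were larger for PABPC1 (0.134 and 0.104), PAFAH1B1 (0.126 and 0.098), CHD9 (0.132 and 0.102) and NFAT5 (0.152 and 0.185). The medians of all genes there were 0.213 and 0.175. The other probe sets named ND4L had SDs from 0.039 to 0.499. ALB and the ND4L probe set used lay near the top of the signal range, and saturation could not be judged without detection calls.

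Of 23 genes of growth hormone and insulin signalling, 18 lay above the median of all genes, as did 9 of 11 clock genes. IGF1, the growth factor that the liver releases under growth hormone, averaged 11.12, and IGFALS, the subunit that holds it in plasma, 10.91. No clock gene reached the brightest 5%, and NFIL3, a repressor of clock output, was the brightest at 9.68. Cell division genes were dim, with a median of 6.71 and 6 of 47 above the median of all genes, and CCND1, cyclin D1, was the bright exception at 11.03. Defence genes were split. ORM1, an acute-phase glycoprotein, averaged 13.20 and AvBD9, an avian beta-defensin, 12.36, but 22 of 35 genes of that list were below the median of all genes. Interferon-stimulated genes had a median of 7.94, with LY6E, a surface protein, the brightest at 11.88.

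**Figure D2:**
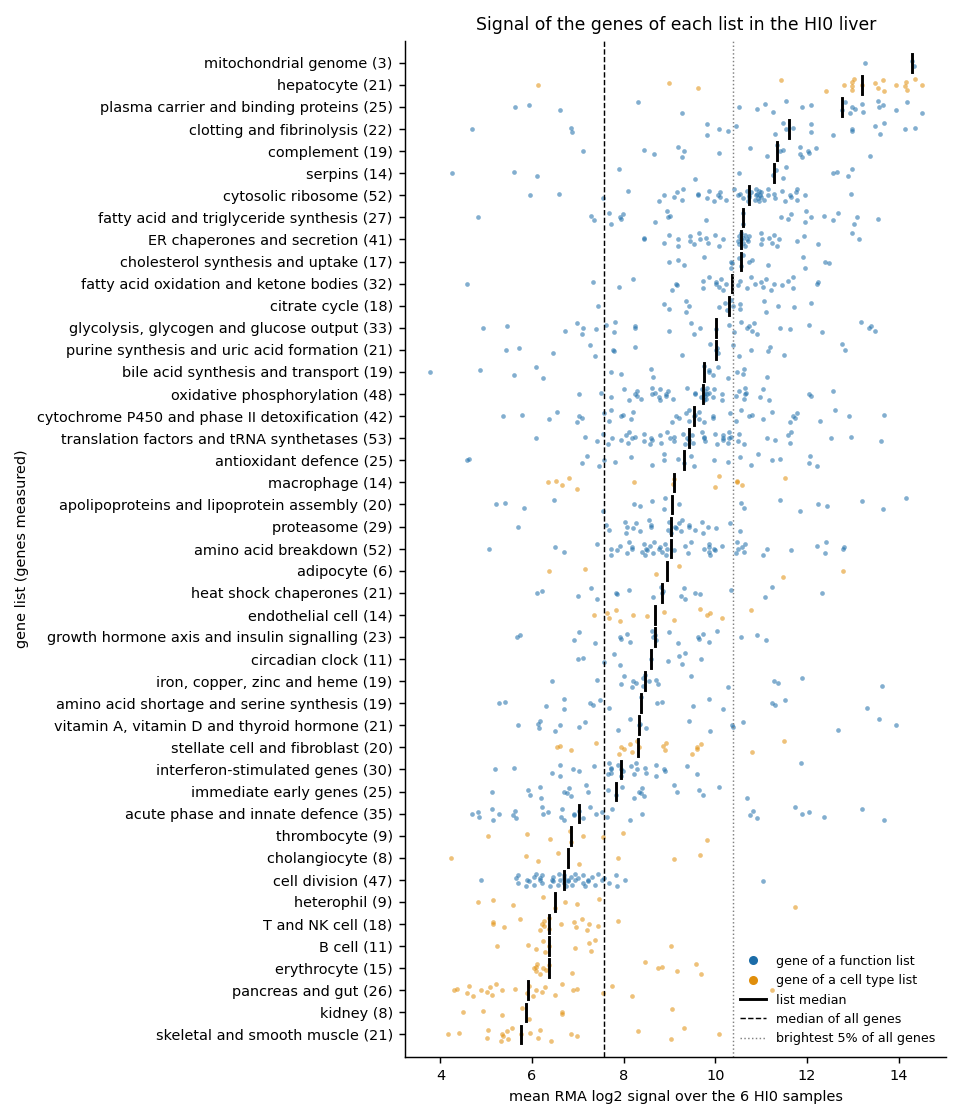
Mean RMA log2 signal over the 6 HI0 samples (horizontal axis) of every measured gene of 45 gene lists, ordered by list median (black bars), with function lists in blue and cell type lists in orange. The medians run from 14.30 for 3 mitochondrial genes and 13.20 for hepatocyte genes to 5.75 for muscle, against 7.56 for all genes (dashed line).

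Among cell type lists, hepatocyte genes had a median of 13.20, macrophage genes 9.10, the 6 adipocyte genes 8.95, endothelial genes 8.69 and stellate cell genes 8.31. The lists of bile duct cells (6.80), thrombocytes (6.86) and heterophils (6.50) lay below the median of all genes. The lists of T and NK cells (6.37), B cells (6.37), pancreas and gut (5.91), kidney (5.86) and muscle (5.75) did too. MARCO, a scavenger receptor of macrophages, averaged 10.58, and CDH5, the cadherin of endothelium, 10.14. COL1A1, type I collagen, averaged 10.79. The red cell list had a median of 6.37, with 6 of 15 genes above the median of all genes. Its brightest members, the alpha globins HBA1 and HBAD, averaged 9.69 and 9.58. Chicken red cells, unlike those of mammals, keep their nuclei.

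Most genes differed little between the 6 samples. The median SD was 0.197, with quartiles of 0.143 and 0.268, and 830 genes (7.2%) had a range above 1, that is a more than 2-fold span. Only 49 genes (0.425%) had a range above 2. Dim genes varied more, with a median SD of 0.244 in the dimmest 25% of genes and 0.170 in the brightest 25%. With limma, the variance of each probe set was set against the variance expected at its signal. At a Benjamini-Hochberg adjusted p below 0.05, 2 of 18226 probe sets were called, 0.011% of those tested, and neither has a gene name in the annotation. Their signals were 7.97, 8.0, 7.82, 11.96, 8.12 and 7.74 for the first and 7.51, 10.20, 6.66, 9.70, 8.82 and 6.26 for the second (adjusted p = 0.0409, limma). No named gene passed: the smallest limma adjusted p was 0.0853. Of the 11528 genes, 549 had an unadjusted limma p below 0.05, which is fewer than 5%. Over all probe sets 1006 did, where 911.3 would be expected if no spread stood out. On simulated data the test found 1.2% of probe sets with 2-fold and 54.4% of those with 6-fold the usual SD, so it leaves moderate spread undetected. The expected variance was fitted with the differences in spread between probe sets included, and how much more samples would help was not tested. The ranking by SD that follows is therefore a description.

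The 30 most variable genes had means from 3.37 to 11.32, and none was among the 30 brightest. The gene ranked 30 had an SD of 0.795 and the next 0.790. MMP1, an interstitial collagenase, had the largest SD, 1.79, from 4.91, 5.40, 4.67, 5.89, 8.80 and 3.53. It was highest in replicate 5 and under the median of all genes elsewhere, where it still ran from 3.53 to 5.89. PCK1 was second, with an SD of 1.27. DIO2, the deiodinase that activates thyroid hormone, was 8.33, 8.29, 8.34, 6.83, 10.45 and 7.75. It was high in replicate 5 and low in replicate 4, a 12.3-fold span.

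Several of the 30 act in metabolism. SULT, a sulfotransferase, was 8.79, 10.34, 7.84, 11.00, 9.38 and 9.46. CYP4B7, a cytochrome P450, was 11.99, 10.65, 10.13, 10.41, 9.12 and 10.44. AOX1, aldehyde oxidase, was 7.10, 8.34, 7.90, 6.33, 6.26 and 6.58. These 3 enzymes were each highest in a different sample, replicates 4, 1 and 2. HKDC1, a hexokinase-like protein, was 11.69 and 11.67 in replicates 1 and 5 and 9.87 to 10.68 in the others. The genes PCK1, LDHB, SPIA3, ANGPTL4 and CYP8B1, described above, also belong here.

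Others of the 30 act in defence or in lymphoid cells. DDX60, an interferon-stimulated helicase, was 9.01 in replicate 1 and 5.84 to 6.46 in the others, and its second probe set was also highest there, at 8.10 against 5.46 to 6.33. JCHAIN, which joins units of IgM and IgA, was 10.31 in replicate 4, 9.74 in replicate 2 and 8.31 to 8.84 elsewhere. ACOD1, which makes itaconate in activated macrophages, was highest in replicate 2 at 8.05. These 3 genes had their highest values in 3 different samples. GIMAP6, a GTPase of lymphocytes, ranged from 6.86 to 9.03 and BG8, of the B-G family of the chicken major histocompatibility complex, from 6.92 to 9.24.

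Transcription factors and signal genes that respond within minutes formed another group. EGR1, a zinc finger factor, was 7.46, 7.93, 8.19, 7.61, 9.72 and 9.50, high in replicates 5 and 6. CYR61, a matrix-bound signal protein, was high in replicate 6 alone, at 8.82 against 6.44 to 7.27. ATF3, a stress factor, was low in replicate 4 alone, at 6.80 against 8.24 to 8.89. These genes did not move together in all samples. The rest of the 30 were OVCH1, LOC417973, WDPCP, CAMK1D, LOC417536, LACTB2, LOC768380, CACNA1D, TOPAZ1, GUCY2C and MAP3K7CL, with SDs from 0.795 to 1.26. OVCH1 was 9.51 in replicate 4 and 6.23 to 7.12 in the others.

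**Figure D3:**
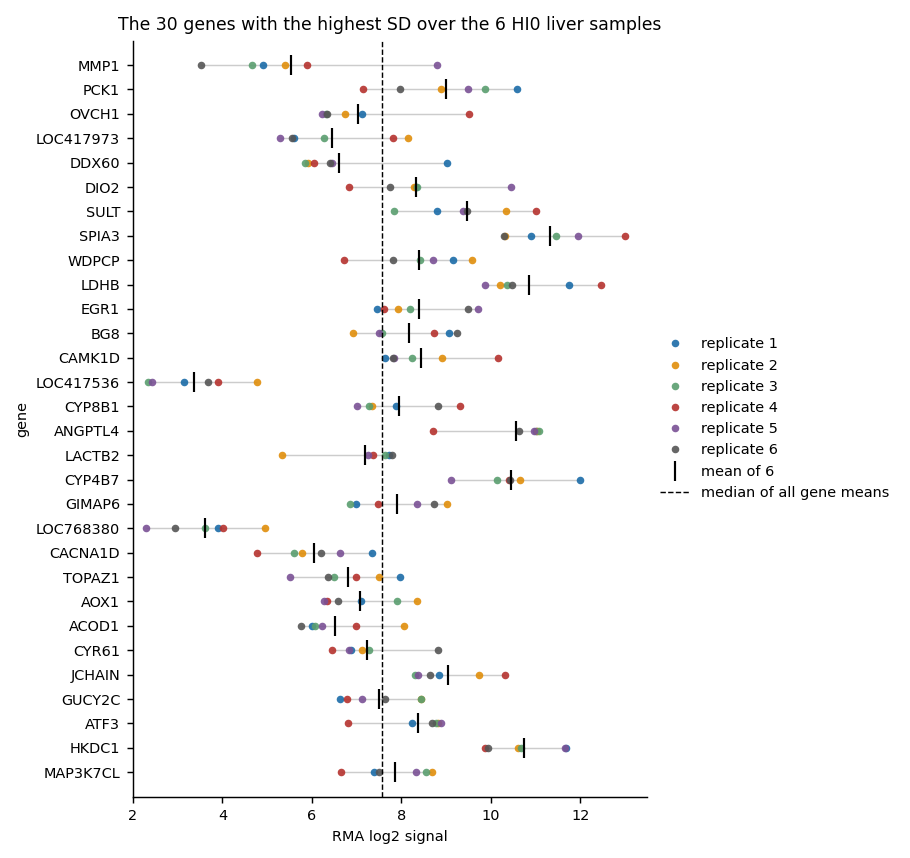
RMA log2 signal (horizontal axis) of the 30 genes with the highest SD, in each HI0 sample (coloured points) with the mean (black tick) and the median of all gene means (dashed line, 7.56). Some genes rest on 1 sample, such as OVCH1 (replicate 4) and DDX60 (replicate 1), while PCK1 is spread over all 6. MMP1 is highest in replicate 5 but also runs from 3.53 to 5.89 in the others.

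No sample was highest or lowest throughout the 30. Replicate 2 was the highest in 9 of them, replicate 4 in 7 and replicate 1 in 6, and replicate 4 was the lowest in 9. Among the 576 genes in the top 5% by SD, replicate 4 was highest in 197, more than any other sample, against 46 to 99 in the other samples. In the same genes replicate 5 was lowest in 144 and replicate 4 in 112. Over all 11528 genes, replicate 4 was highest in 2143, fewer than replicates 5 (2223) and 6 (2241). Without replicate 4, 18 of the 30 stayed among the 30 most variable genes.

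The spread of these genes was also measured in samples that did not choose them, within each of the other diets and without comparing diet means. Of the 30 genes, 29 were in the top 5% by SD among the 6 HI7.5 samples (diet with 75 g of larvae meal per kg) and 27 among the 6 HI15 samples (150 g per kg). Their median SD was 0.836 and 0.653 there, against 0.213 and 0.175 for all genes. ACOD1 was the gene outside the top 5% in both. The same probe sets gave all of these values, so an uneven probe set would recur with its gene.

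**Figure D4:**
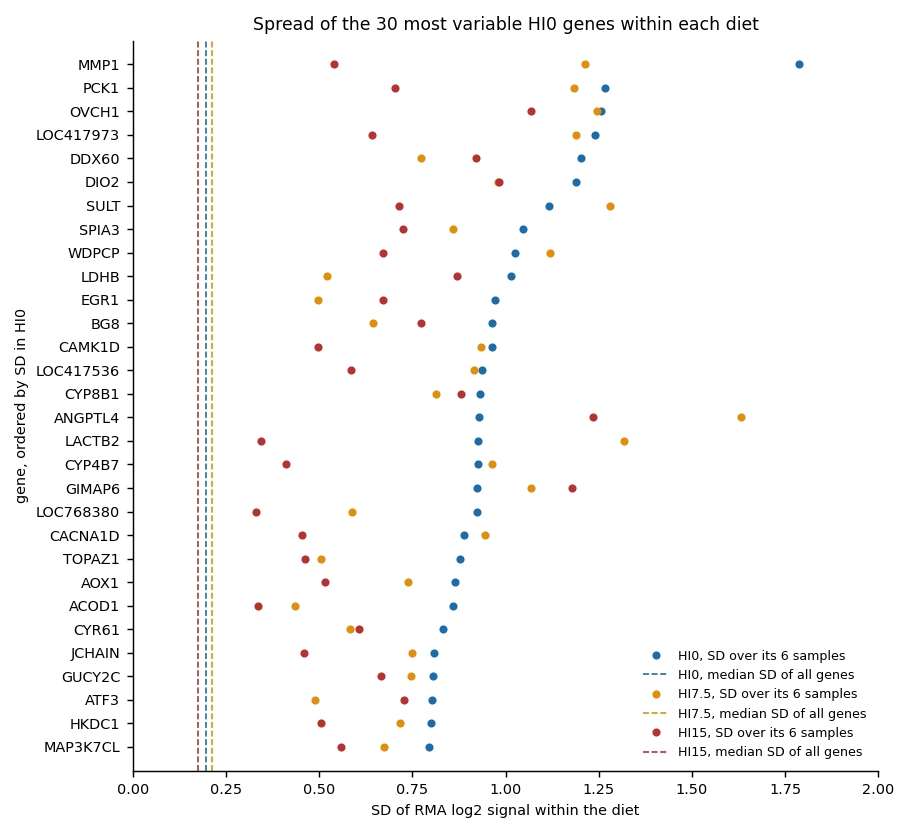
SD of RMA log2 signal within a diet (horizontal axis) for the 30 genes with the highest SD in HI0, for HI0 (blue), HI7.5 (orange) and HI15 (red), with the median SD of all genes in each diet as dashed lines. All 30 genes lie above the medians of 0.197, 0.213 and 0.175.

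A second probe set with the same symbol can serve as another reading of a gene, provided both read the same RNA, which was not tested. For 651 genes with more than 1 probe set, the correlation of the 2 brightest over the 6 samples had a median of 0.48, and 146 were below 0. Among the 65 of these genes in the top 10% by SD the median was 0.71, with 27 above 0.8 and 12 below 0. The 2 probe sets of ORM1 ran in parallel, at 13.25, 13.33, 12.86, 14.05, 13.12 and 12.59 for the brighter and 12.42, 12.53, 12.02, 13.34, 12.38 and 11.87 for the dimmer. Those of LACTB2, an endonuclease of mitochondria, did not: the brighter was 5.34 in replicate 2, far below the 7.26 to 7.79 of the others, where the second was highest at 7.70. For LACTB2 the large SD therefore belongs to 1 probe set. Of the genes ranked highest by SD above, only DDX60 and LACTB2 had a second probe set. Its correlation with the brighter one was 0.91 for DDX60 and -0.74 for LACTB2. The spread of the other genes in that ranking could not be checked in this way.

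Genes of a function often lay high or low together in a sample. For each list, the deviation of its genes from their own 6-sample means was averaged in each sample. Replicate 4 was highest in 14 of 45 lists and lowest in 10, and replicate 5 was lowest in 16. Some lists share genes, such as APOH, P4HB and CYP8B1, so the lists are not separate counts. After quantile normalization the highest sample was the same in 36 of the 45 lists and the lowest in 38. The scale of the arrays moved with this: the median deviation of the dimmest 25% of genes was 0.157 in replicate 5 and -0.130 in replicate 6, and that of the brightest 25% -0.117 and 0.097.

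Replicate 4 was the highest sample for macrophage, T and NK cell, B cell, defence and secretion genes, but not for heterophil genes (-0.043, 5 of 9 above their means). It was the lowest for immediate early genes (-0.23) and for vitamin A, vitamin D and thyroid hormone genes (-0.22). Macrophage genes lay 0.42 above their means there, with 12 of 14 above, and T and NK cell genes 0.40 above, with 15 of 18. CD3E, a chain of the T cell receptor complex, was 8.22 in replicate 4 and 6.99 to 7.17 in the others. C1QC, a complement subunit made by macrophages, was 10.95 there against 9.73 to 10.07, and MARCO 11.37 against 10.14 to 10.88. B cell genes lay 0.21 above their means in replicate 4, with 7 of 11 above. Of their markers JCHAIN was highest there, but CD79B was 7.38 against its mean of 7.37, and POU2AF1 was highest in replicate 2 (5.78). Not all T cell markers followed: CD8A was lowest in replicate 4 at 6.69.

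In the same sample, interferon-stimulated genes lay 0.33 above their means (28 of 30 genes), complement genes 0.32 (15 of 19), endoplasmic reticulum genes 0.32 (39 of 41) and cell division genes 0.32 (44 of 47). Over all genes, 48% lay above their own mean in replicate 4. HPX, which binds free heme, was 12.52 there and 11.65 to 11.89 elsewhere, and ORM1 was 14.05 against 12.59 to 13.33. HERPUD1, induced when proteins misfold in the endoplasmic reticulum, was 11.06 against 9.59 to 10.40. The macrophage and T cell markers moved with these groups, and their part in them was not tested. After quantile normalization replicate 4 remained the highest for all these lists, with 0.40 for macrophages, 0.44 for T and NK cells, 0.32 for interferon-stimulated genes, 0.29 for complement, 0.27 for the endoplasmic reticulum and 0.36 for cell division.

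Replicate 5 stood out on the low side for several lists, among them nuclear genes of mitochondria, detoxification genes and cell division genes. Of 48 oxidative phosphorylation genes 0 lay above their own means, as did 0 of 29 proteasome genes and 1 of 32 fatty acid oxidation genes, against 45% of all genes. The list deviations were -0.25, -0.16 and -0.37. Cytochrome P450 and phase II genes lay at -0.29, amino acid breakdown genes at -0.26 and antioxidant genes at -0.23. Cell division genes lay at -0.30, with 2 of 47 above their means, and interferon-stimulated genes at -0.25. The list of mitochondrial DNA genes was only at -0.05, as in replicates 1 and 2. ATP5B was 12.15 in replicate 5 and 12.48 to 12.87 in the others. Replicate 5 was the array with the narrowest scale, and after quantile normalization the deviations shrank to -0.16 for oxidative phosphorylation, -0.08 for the proteasome and -0.28 for fatty acid oxidation, still the lowest of the 6 samples. The deviation of translation factors, -0.074, went to 0.0019 under that normalization, while that of cell division genes went to -0.38.

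Endothelial and stellate cell genes were lowest in replicate 1 and highest in replicate 6. In replicate 1 their list deviations were -0.40 and -0.26, with 1 of 14 and 4 of 20 genes above, and in replicate 6 they lay 0.29 and 0.31 above, with 12 of 14 and 18 of 20. In replicate 5 they lay 0.12 and 0.22 above, in replicate 4 both were below (-0.09 and -0.16), and in replicates 2 (0.07 and -0.09) and 3 (0.014 and -0.037) they had opposite signs. Over all genes, 50.1% lay above their own means in replicate 1 and 49.9% in replicate 6. The median deviation of the brightest 25% of genes was -0.045 and 0.097 in these samples. After quantile normalization endothelial and stellate cell genes lay at -0.38 and -0.24 in replicate 1, and endothelial genes at 0.23 in replicate 6. Replicate 5 was then the highest for stellate cell genes, at 0.29 against 0.27 in replicate 6. STAB2, a scavenger receptor of sinusoidal endothelium, was 8.99, 9.71, 9.91, 9.44, 9.71 and 10.18. RGS5, a pericyte marker, was 9.18, 9.27, 9.72, 9.26, 9.94 and 10.24, lowest and highest in the same samples as STAB2. Not all markers followed. Of the stellate cell markers, COL1A2 (8.64) and LUM (7.75) were lowest in replicate 4. COL1A1 (10.94) and PDGFRB (8.21) reached their highest value in replicate 5 and PDGFRA (6.75) in replicate 2. Of the endothelial markers, PECAM1 was highest in replicate 4 (7.95) and KDR in replicate 3 (9.48). The hepatocyte list lay between -0.08 and 0.12, with PCK1 its most variable member.

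**Figure D5:**
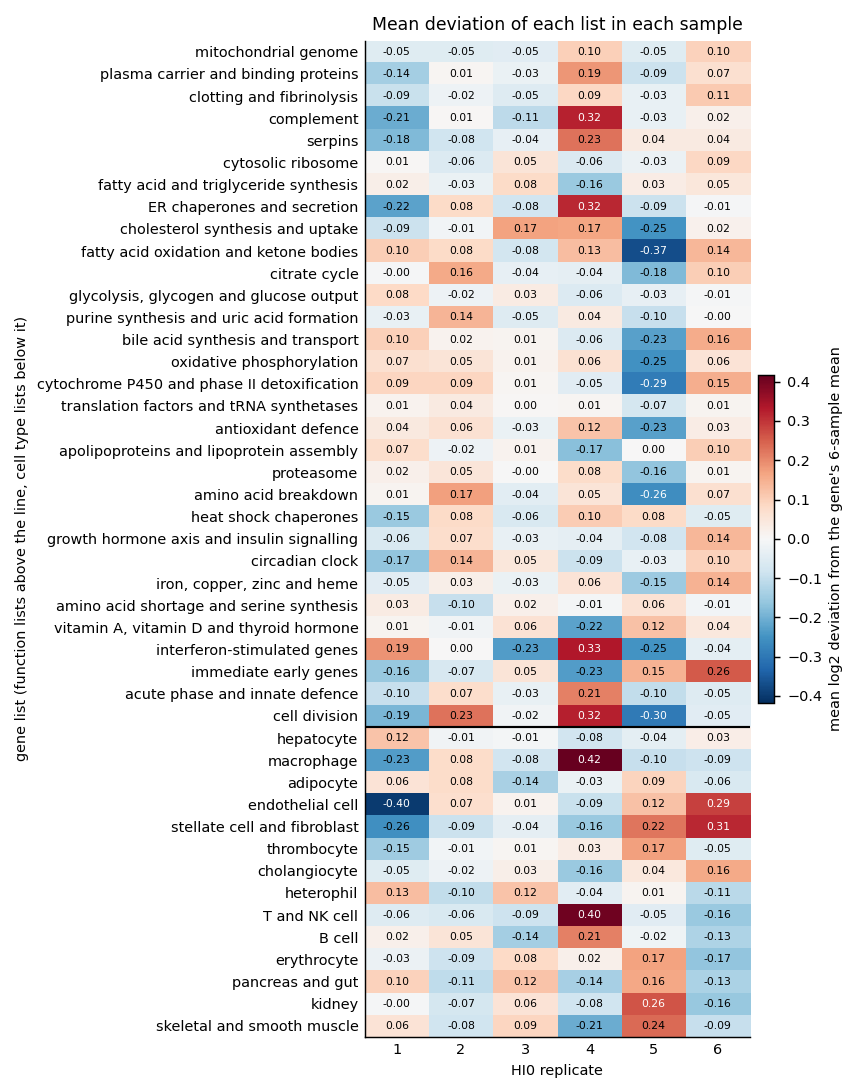
Mean log2 deviation of each gene list (rows, function lists above the black line and cell type lists below it) from its genes' own 6-sample means, in each HI0 replicate (columns), red for higher and blue for lower. The deepest red is macrophage in replicate 4 (0.42), and the deepest blues are endothelial cell in replicate 1 (-0.40) and fatty acid oxidation in replicate 5 (-0.37).

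Of 12 gene pairs with textbook links, 8 had both genes measured. Their correlation over the 6 samples was tested by exact two-sided permutation, with p-values adjusted over the 8. For each pair r was also taken without the 2 samples farthest from the median of the gene named first. This leaves that gene a narrower range, so a lower r there is hard to read. CDK1, the kinase that starts mitosis, and TOP2A, the topoisomerase of dividing cells, passed. CDK1 was 7.30, 8.25, 8.10, 8.72, 7.13 and 7.55, and TOP2A was 7.04, 7.62, 7.22, 7.99, 6.38 and 7.13. The order of the samples was the same for both (Pearson r = 0.93, Spearman rho = 1.00, exact permutation p = 0.00278 for each, the smallest that 6 samples give, adjusted p = 0.0222), and r was 0.85 without replicates 4 and 5.

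The other pairs did not pass the exact permutation test after adjustment. HSPA5 with HSP90B1 had r = 0.87 (rho = 0.81) and -0.11 without replicates 2 and 4. Without replicate 2 alone r was 0.87, and without replicate 4 alone 0.66. EGR1 with FOS, both immediate early factors, had r = 0.79 (rho = 0.89) and 0.96 without replicates 5 and 6. CYP1A1 with CYP1A2, targets of the aryl hydrocarbon receptor, had r = 0.76 (rho = 0.75) and 0.48 without replicates 4 and 5. For each of these 3 pairs the exact permutation p of r was 0.0889 after adjustment. PER2 with ARNTL of the clock had r = 0.69 (0.038 without replicates 1 and 4), and MX1 with IFIT5, both interferon-stimulated, r = 0.64 (0.91 without replicates 2 and 5), with exact adjusted p = 0.196 for both. The kinase PDK4, which turns off pyruvate oxidation, gave r = 0.10 with CPT1A (adjusted exact p = 0.831) and -0.29 with FASN (adjusted exact p = 0.648).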

How the data were processed

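Liver RNA was measured on single-colour Affymetrix arrays. The deposited log2 signals come from RMA, run by the authors with Expression Console 1.4 according to the submitters' processing notes. Background correction, normalization across arrays and a summary of the probes in each set are steps of RMA. The table gives no detection calls, so dim probe sets were kept. The array count, not depth, limits precision. Symbols came from the platform annotation: 12300 probe sets had 1 symbol, 256 several and 5670 none, and 11727 matched a current RefSeq gene by identifier. The 651 genes with more than 1 probe set were read by the brightest.

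The 6 HI0 arrays were ranked by mean and by SD. Spread was tested with limma 3.58.1 in R 4.3.3 (variance prior with a trend on mean signal, robust fit, Benjamini-Hochberg over all probe sets, calls at 0.05) and checked on simulated data, and gene pairs with exact permutations in scipy 1.17.1. Named genes are the 30 highest by mean and by SD, the 3 brightest and the most variable of each list, the 6 steadiest of the brightest 25%, the pairs and the cell type markers. Of 45 lists, 3 (ribosome, translation, proteasome) were taken by symbol pattern and the others by exact symbol. Members and lists were chosen with earlier results of these data known. Alternatives were other normalizations, probe set rules, spread measures, filters and leaving out each replicate. No genome build was named for the array, so no coordinates or sequences are given.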

Additional observations from a re-analysis of the deposited data

Results flagged for a closer look

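In 18 of 205 results checked (160 genes and 45 lists), 1 sample lay far from the other 5 relative to the whole range. Chance flags about 5% of groups, and over all genes 5.92% were so marked, with 199 in replicate 5 and 162 in replicate 4 against 44 in replicate 3. Genes named for a high SD were among the 160, and 1 far sample raises an SD. The 18 of 205 can therefore not be read against these percentages.

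In replicate 4, log2 signals lay apart for ANGPTL4 (8.70), ATF3 (6.80), PRPS2 (12.47) and SPIA4 (12.24) on the low side and for GLRX (8.51), HPX (12.52) and OVCH1 (9.51) on the high side. The T and NK cell list was 0.4043 above its mean there, against -0.16 to -0.05 in the others. In replicate 5, ACADL (11.96) and VTN (13.42) lay apart below, as did the lists of oxidative phosphorylation (-0.2531), proteasome (-0.1636) and translation factors and tRNA synthetases (-0.07403). After quantile normalization these 3 lists were at -0.16, -0.08 and 0.0019 there. In replicate 1, DDX60 (9.01) lay above and SPINK5 (13.86) below. In replicate 2, LACTB2 (5.34) lay below, and in replicate 6, CYR61 (8.82) and TAT (12.68) lay above. For ACADL, SPINK5, TAT and VTN the distance to the nearest sample was at most 0.28.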

How the results depend on the processing

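Of the 30 brightest genes, 25 to 30 stayed among the 30 brightest under all alternatives, the 25 with all probe sets of a gene averaged. Of the 30 most variable genes, 28, 28, 29 and 24 stayed with quantile normalization, array medians subtracted, probe sets averaged and SD relative to its trend. With the median absolute deviation 14 stayed, and with only genes above the median signal 17, since 13 of the 30 are dimmer than that. Leaving out 1 replicate kept 18 to 28, the 18 without replicate 4. The cause of the other shifts was not tested. The limma test called 2 probe sets. It called 0 with no trend, 0 without the robust fit, 0 with quantile normalization, 0 among probe sets above the median signal and 4 with array medians subtracted. Without 1 replicate it called 0 to 5: 5 without replicate 1, 4 without replicate 4 and 0 without replicate 2 or 6. Named genes among these calls numbered 1 with array medians subtracted and at most 2 without 1 replicate. CDK1 with TOP2A kept r between 0.86 and 0.96 without 1 replicate, where 5 samples left the exact adjusted p above 0.05 (0.0667 to 0.133), and passed with other normalizations (r = 0.92 and 0.93). FASN with PDK4 ranged from -0.72 to 0.23 without 1 replicate and PDK4 with CPT1A from -0.50 to 0.70, so neither kept its direction: FASN with PDK4 turned positive (0.23) without replicate 4, and PDK4 with CPT1A negative without replicate 4 (-0.07) or 5 (-0.50). The other pairs kept their sign and passed under none. List medians moved beyond the spread between samples in 7 of 360 cases, 5 of them with probe sets averaged. List deviations, recomputed under 2 normalizations chosen after seeing the data, moved in 5 of 540 cases. Under quantile normalization the highest sample was the same in 36 of 45 lists and the lowest in 38, and with array medians subtracted in 40 and 42.

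No paired analysis was possible because only 1 diet group was described. The 6 arrays limit the precision of every SD, and saturation or low signal could not be judged without detection calls. Symbols follow an old annotation, and 53 of the 100 brightest and 58 of the 100 most variable probe sets have no single gene name, so the rankings cover only named genes.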
